A study of Homo sapiens with 3 samples.

Results

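The 4 mitotic genes HMMR, CCNA2, KIF20A and TOP2A are described here in HEK293 cells with the genes across from 3 of them on the other DNA strand: HMMR-AS1 with HMMR, EXOSC9 with CCNA2, BRD8 with KIF20A, and TOP2A as a mitotic gene with no such partner. These 7 names were taken from the 26485 gene names of the count tables because of their measured levels, so the levels describe the members and were not tested. HEK293 is a human cell line that was made from embryonic kidney. The study held a single condition, with 3 RNA sequencing libraries of cells grown in DMEM with fetal calf serum, so no contrast between groups existed. Total RNA was depleted of ribosomal RNA before library preparation with a kit that keeps the strand of the transcript. Separate cultures are not named for the replicates, so spreads and p-values below measure differences between these 3 libraries, which may be technical.

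Dividing cells switch a set of genes on in the G2 phase and in mitosis. Cyclin A2, encoded by CCNA2, binds cyclin-dependent kinases and drives cells through S phase and into mitosis. HMMR encodes a hyaluronan receptor that also binds microtubules and organises the spindle, KIF20A a kinesin motor needed for cytokinesis, and TOP2A the topoisomerase that untangles sister chromosomes. Their partners have other roles: EXOSC9 encodes a core subunit of the RNA exosome, which degrades and trims RNA, BRD8 encodes a bromodomain subunit of the NuA4/TIP60 histone acetyltransferase complex, and HMMR-AS1 is a long non-coding RNA gene. Where exons of 2 genes cover the same bases on opposite strands, only the strand of a read tells which gene it came from.

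No source used here gives the strand setting of the read counting. The strand of the RNA behind a count under any of these names is therefore not known, and every level below is a level of counts under a name. Ambiguous records, which fit more than 1 gene, held 0.0184% ± 0.000221 of all records (SD, n = 3). With a setting opposite to the strand that the kit keeps, all counts under a name, not only those over shared bases, would come from RNA of the other strand, and reads over exons with no gene across from them would be listed under no feature. No feature held 91.2% ± 0.473 of all records (SD, n = 3), and the median level was 2.05 CPM per kilobase of exon for names with an opposite-strand exon partner, against 0 for names without one. Whether the counts were made on the opposite strand was not tested. The libraries held 412066, 483114 and 289241 counts assigned to genes, a mean of 2.02% ± 0.396 (SD, n = 3) of all records, and the 7 names together held 1091, 1259 and 967 of them. A single count equalled 2.29, 2.31 and 3.30 CPM, the count scaled to a common library size after TMM normalisation. The floor, taken as 3 counts, equalled 6.86, 6.92 and 9.89 CPM in replicates 1, 2 and 3. TSIX alone held 17.9%, 28.5% and 17.1% of gene-assigned counts. Of 11 marker genes of HEK293 cells, 9 had a count, with PAX2 and LHX1 at 0 and summed counts of 156, 114 and 86. Among the 9, KRT18, NEFM and CDH2 stayed below the floor of 3 counts in every library. Marker lists of blood, liver, fibroblasts and mature kidney tubule had 1 of 5, 1 of 4, 1 of 4 and 3 of 4 genes with a count and summed counts of at most 23 in any library. These lists are shorter, and the blood gene LYZ, with 23, 13 and 8 counts, lay near the HEK293 marker VIM, with 26, 10 and 9. No pair of libraries agreed within sampling noise, with chi-square values per degree of freedom of 16.9, 3.00 and 13.5 for replicates 1 and 2, 1 and 3, and 2 and 3.

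The 3 pairs overlap in different ways, on the GRCh38 build and in GENCODE release 29. HMMR-AS1 lies on chromosome 5 from 163483065 to 163494058 on the minus strand and starts beyond the 3′ end of HMMR, which runs from 163460203 to 163491945 on the plus strand. Their merged exons share 113 bp, of which 108 bp lie in 1 coding exon of HMMR. This is 11.8% of the exon length of HMMR-AS1 and 2.87% of that of HMMR. Of the 957 exon bases of HMMR-AS1, a further 228 lie over introns of HMMR and 616 lie outside the body of HMMR. The RefSeq gene body of HMMR-AS1 begins 461 bases lower, at 163482604, and this added stretch holds 192 more bases of HMMR exon, so the overlap depends on the annotation that was used for counting. EXOSC9 (chromosome 4, 121801317 to 121817021, plus strand) and CCNA2 (121816444 to 121823933, minus strand) run towards each other. Their ends overlap over 578 bp, with 254 bp of shared exon within this stretch. BRD8 (chromosome 5, 138139766 to 138178986, minus strand) and KIF20A (138178719 to 138187715, plus strand) are arranged head to head, with 132 bp of shared exon at their annotated starts. In RefSeq these gene bodies do not overlap, since BRD8 starts at 138178630 and KIF20A at 138179112, so this pairing depends on the annotation too. KIF20A also shares 68 bp at its far end with CDC23, a subunit gene of the anaphase-promoting complex. TOP2A, on chromosome 17 from 40388516 to 40417950 on the minus strand, shared no exon base with another name of the tables.

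**Figure D1:**
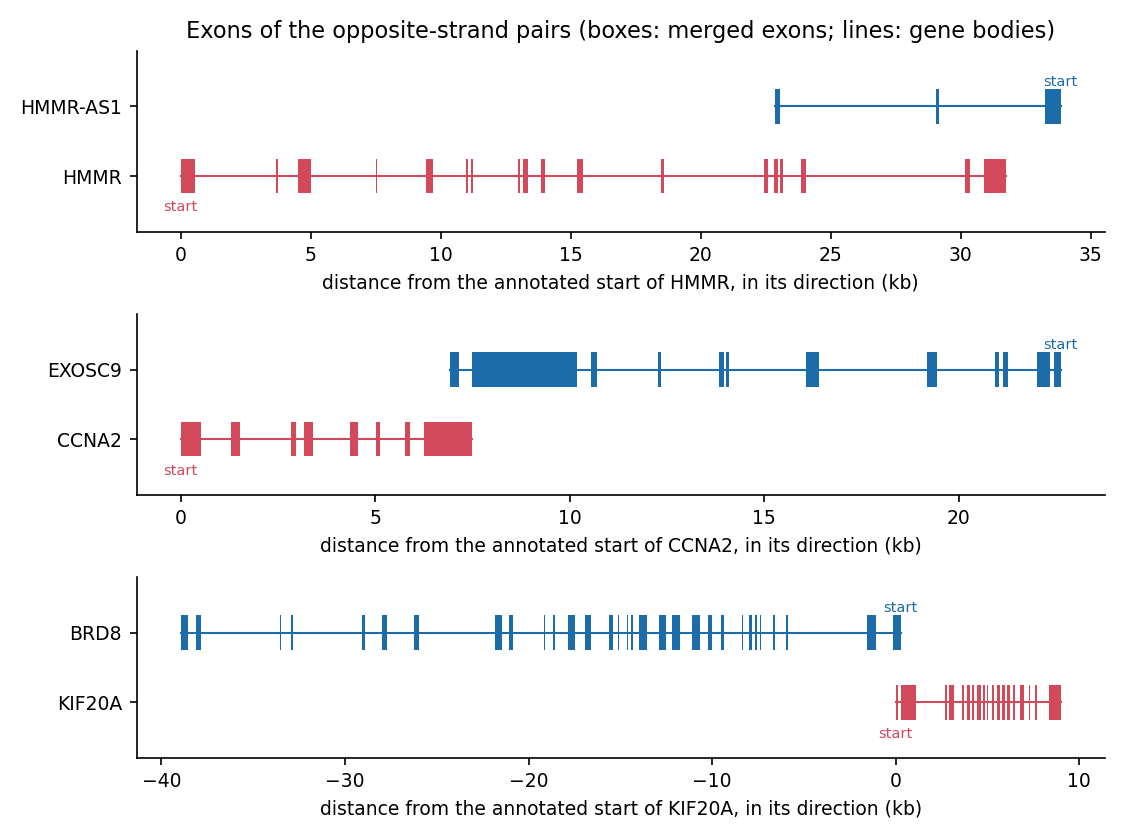
Exon maps of the 3 pairs, with distance in kilobases from the annotated start of the mitotic gene on the horizontal axis, boxes for merged exons and lines for gene bodies, the partner above and the mitotic gene below. HMMR-AS1 crosses the last part of HMMR, EXOSC9 and CCNA2 meet at their ends, and BRD8 and KIF20A meet at their starts.

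The coding exon of HMMR that carries most of the overlap with HMMR-AS1 is shown because these bases are annotated as exon of both genes, on opposite strands. It is exon 13 of 17 of a coding HMMR transcript, 153 bases long, written on the plus strand. Capitals mark the 108 bases that an exon of HMMR-AS1 covers.
HMMR exon (chr5:163483020-163483172, plus strand): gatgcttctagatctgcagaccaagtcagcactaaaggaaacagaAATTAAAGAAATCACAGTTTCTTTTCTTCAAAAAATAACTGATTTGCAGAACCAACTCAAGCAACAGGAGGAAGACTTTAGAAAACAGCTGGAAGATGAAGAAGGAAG

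The promoters of the 4 mitotic genes are shown because genes of this class share short words near their starts. In the background knowledge of the field, the CHR element (TTTGAA or CTTGAA) is bound by the MuvB complexes that hold such genes silent in resting cells and switch them on before mitosis, and the CCAAT box by the factor NF-Y. The 250 bases before each start in RefSeq (GRCh38.p14) are written in the direction of the gene, with every copy of these 3 words, on either strand, in capitals. A copy on the opposite strand appears as its reverse complement.
HMMR (chr5:163460382-163460631, plus strand): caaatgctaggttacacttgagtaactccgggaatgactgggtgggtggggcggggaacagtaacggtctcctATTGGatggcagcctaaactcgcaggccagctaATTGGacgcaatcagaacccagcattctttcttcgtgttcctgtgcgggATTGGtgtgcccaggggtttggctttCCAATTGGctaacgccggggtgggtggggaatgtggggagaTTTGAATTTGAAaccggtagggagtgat
CCNA2 (chr4:121823884-121824133, minus strand): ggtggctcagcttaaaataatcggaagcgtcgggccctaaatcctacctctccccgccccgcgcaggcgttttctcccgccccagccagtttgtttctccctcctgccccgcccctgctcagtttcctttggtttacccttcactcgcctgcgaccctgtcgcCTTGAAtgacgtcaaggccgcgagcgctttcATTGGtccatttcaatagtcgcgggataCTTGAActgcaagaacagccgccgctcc
KIF20A (chr5:138178862-138179111, plus strand): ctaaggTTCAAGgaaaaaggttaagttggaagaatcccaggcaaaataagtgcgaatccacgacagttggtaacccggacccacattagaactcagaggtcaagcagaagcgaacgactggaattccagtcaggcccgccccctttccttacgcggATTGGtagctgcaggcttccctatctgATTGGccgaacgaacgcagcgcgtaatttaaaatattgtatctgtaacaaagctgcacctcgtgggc
TOP2A (chr17:40417897-40418146, minus strand): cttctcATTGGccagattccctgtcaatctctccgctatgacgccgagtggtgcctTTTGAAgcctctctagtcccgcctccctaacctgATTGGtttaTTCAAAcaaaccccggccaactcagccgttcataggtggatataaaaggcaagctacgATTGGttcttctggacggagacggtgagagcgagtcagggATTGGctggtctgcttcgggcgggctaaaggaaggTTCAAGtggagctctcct

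All 4 mitotic promoters held a CHR word and a CCAAT box, against 7.38% of 35116 promoters of the same length in the table that held both. HMMR had 2 adjoining TTTGAA words, which start 28 and 22 bases before the RefSeq start, and 5 CCAAT boxes, a pair of which overlap. CCNA2 had CTTGAA words at 87 and 28 bases and a CCAAT box at 56 bases before its start. TOP2A had 2 TTTGAA words, 1 CTTGAA word 18 bases before its start and 4 CCAAT boxes. KIF20A had CCAAT boxes at 94 and 67 bases, and its single CTTGAA word lay 244 bases before its start. That word stands in the 19 bases where the promoter windows of BRD8 and KIF20A overlap, so the BRD8 window holds the same word at 243 bases. EXOSC9 had 1 CCAAT box and no CHR word, BRD8 no CCAAT box, and HMMR-AS1 neither word. Over all promoters, TTTGAA was found in 13.3%, CTTGAA in 9.52% and CCAAT in 32.0%. These matches describe letters in a window and are not evidence of binding.

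HMMR-AS1 was the highest of the 7 names and HMMR was near the floor. HMMR-AS1 received 621, 648 and 561 counts in replicates 1, 2 and 3, against 2, 4 and 2 counts for HMMR. HMMR-AS1 had more counts than HMMR in each library. HMMR-AS1 thus had 1587 ± 230 CPM and ranked 58 of 14482 names with a count, whereas HMMR had 6.79 ± 2.33 CPM and ranked 7751 (SD, n = 3 each). Per kilobase of exon the levels were 1659 ± 240 CPM for HMMR-AS1 and 1.73 ± 0.592 CPM for HMMR (SD, n = 3 each). HMMR held 0.321%, 0.613% and 0.355% of the counts of the pair, with exact Clopper-Pearson 95% intervals of 0.0389 to 1.15%, 0.167 to 1.56% and 0.0431 to 1.28%. The log2 ratio of HMMR-AS1 over HMMR per kilobase, with a prior of 0.5 counts, had a mean of 9.69 ± 0.42 (SD, n = 3). Over the summed counts of 1830 and 8, HMMR-AS1 was 941-fold higher per kilobase, with a 95% interval of 476 to 2183 that covers counting error alone, as do all intervals and floors here.

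EXOSC9 and CCNA2 were both high and nearly equal in counts. EXOSC9 received 219, 258 and 185 counts in replicates 1, 2 and 3, against 175, 262 and 170 for CCNA2. EXOSC9 had more counts in replicates 1 and 3 and CCNA2 in replicate 2. The share of EXOSC9 was 55.6% (exact 95% interval 50.5 to 60.6%), 49.6% (45.2 to 54.0%) and 52.1% (46.8 to 57.4%) in the same order, and these intervals overlapped. EXOSC9 had 568 ± 59.1 CPM and CCNA2 521 ± 107 CPM (SD, n = 3 each). Per kilobase of exon CCNA2 was the higher in all 3 libraries: EXOSC9 had 121 ± 12.6 CPM and CCNA2 186 ± 38.4 CPM per kilobase (SD, n = 3 each). The log2 ratio of EXOSC9 over CCNA2 per kilobase was -0.43, -0.77 and -0.63 in replicates 1, 2 and 3, with a mean of -0.61 ± 0.17 (SD, n = 3). Without the correction for length this mean was 0.14, so the order of these genes rests on the annotated exon lengths, 4711 bp for EXOSC9 and 2798 bp for CCNA2. The merged exons of EXOSC9 include a block, seen in the exon maps, that is longer than any other of the pair.

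BRD8 and KIF20A showed the opposite arrangement to HMMR-AS1 and HMMR, with the counts under the mitotic gene. BRD8 received 2, 2 and 0 counts in replicates 1, 2 and 3, against 58, 57 and 41 for KIF20A. BRD8 was below the floor of 3 counts in every library. BRD8 had 3.06 ± 2.65 CPM and KIF20A had 133 ± 1.91 CPM (SD, n = 3 each). KIF20A was the steadiest of the names, at 132.6, 131.4 and 135.1 CPM in replicates 1, 2 and 3. Its spread lay below counting noise, so the SD of 1.91 CPM understates how uncertain this level is. BRD8 held 3.33% (exact 95% interval 0.406 to 11.5%) and 3.39% (0.413 to 11.7%) of the counts of the pair in replicates 1 and 2, and 0 of 41 counts in replicate 3 (exact 95% interval 0 to 8.60%). The floor of 3 counts in 41 is a share of 7.32%. The log2 ratio of BRD8 over KIF20A per kilobase had a mean of -5.98 ± 1.06 (SD, n = 3) with the same prior, and its size depends on that prior. Over the summed counts of 4 and 156 the ratio of BRD8 to KIF20A per kilobase was 0.0144, with a 95% interval of 0.00388 to 0.0376. CDC23, at the far end of KIF20A, received 15, 28 and 21 counts. Per kilobase CDC23 lay below KIF20A, with a mean log2 ratio of CDC23 over KIF20A of -1.51 ± 0.54 (SD, n = 3).

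**Figure D2:**
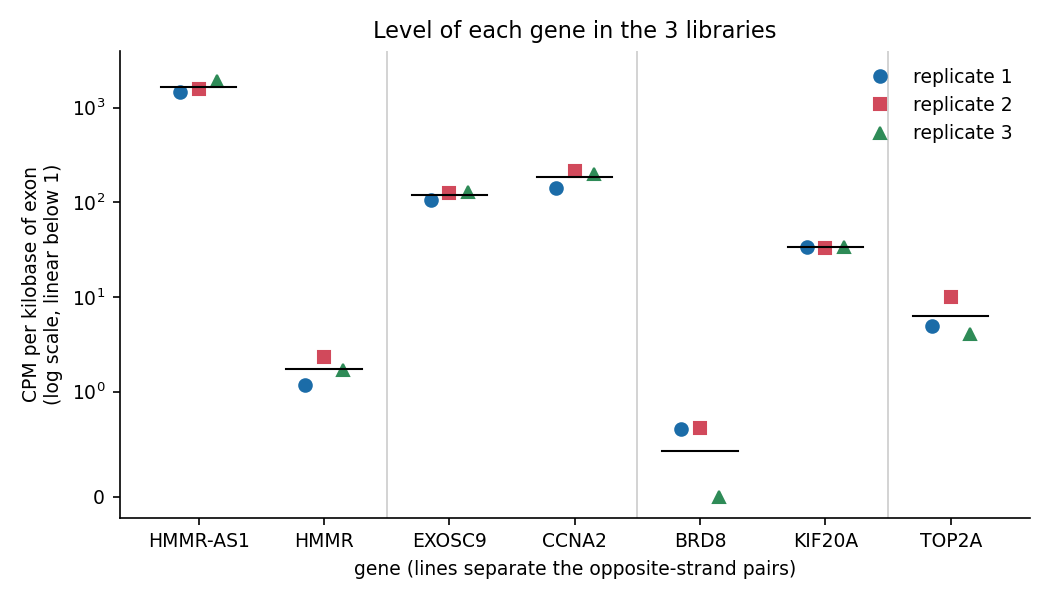
Level of each of the 7 names in the 3 libraries, in CPM per kilobase of exon on an axis that is logarithmic above 1 and linear below it, with a symbol for each replicate and a line at the mean. HMMR-AS1 lies near 1659 and HMMR near 1.73, EXOSC9 and CCNA2 lie close together, and BRD8 lies below KIF20A in each library.

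**Figure D3:**
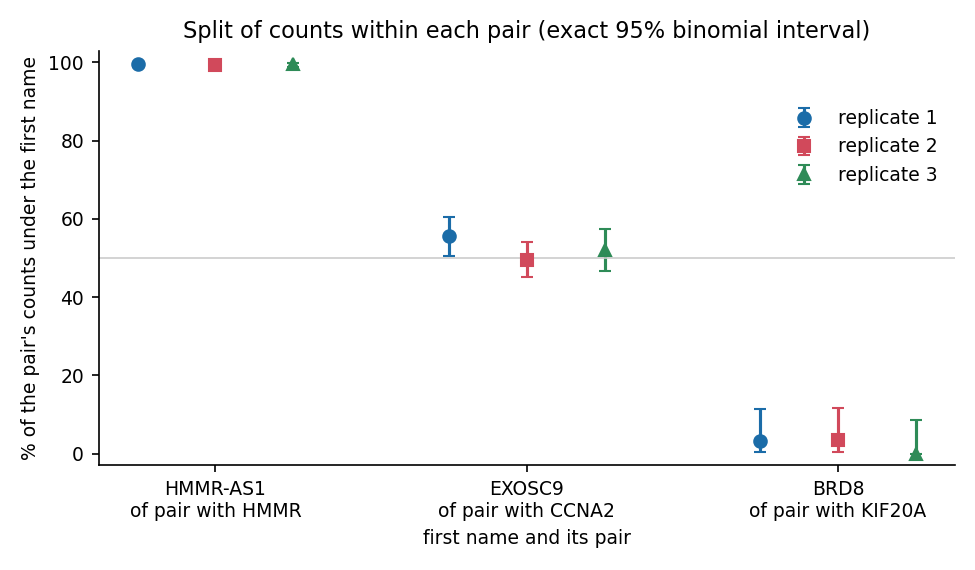
Percent of the counts of each pair that stood under its first name (HMMR-AS1, EXOSC9 or BRD8), by library, with exact 95% binomial intervals. The share was 99.4 to 99.7% for HMMR-AS1, 49.6 to 55.6% for EXOSC9 and 0 to 3.39% for BRD8.

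TOP2A, with no partner, received 14, 28 and 8 counts in replicates 1, 2 and 3. Replicate 2 was the highest on the CPM scale too, with 32.0, 64.5 and 26.4 CPM and a mean of 41.0 ± 20.6 CPM (SD, n = 3). Ordered by CPM per kilobase, the 7 names ran from HMMR-AS1 (1659) through CCNA2 (186), EXOSC9 (121), KIF20A (33.6), TOP2A (6.36) and HMMR (1.73) to BRD8 (0.434). The values of neighbouring names overlapped between libraries for CCNA2 with EXOSC9 only on the CPM scale and not per kilobase, where the highest EXOSC9 library (129) lay below the lowest CCNA2 library (143). Per kilobase the other neighbours were also separated in these 3 libraries, from TOP2A at 4.10 to 10.0 against HMMR at 1.16 to 2.34 to HMMR against BRD8 at 0 to 0.654 CPM per kilobase. For HMMR and BRD8 this separation, but not the order of their means, rests on exon length. On the CPM scale they overlapped, at 4.57 to 9.22 CPM for HMMR and 0 to 4.61 CPM for BRD8. Their means there were 6.79 and 3.06 CPM. Both had 2 counts in replicate 1, and most of their values lay below the floor. HMMR, at 1.73 CPM per kilobase, lay close to the median of 1.78 over the 13633 names with a count and an exon length. In all 3 libraries 4 of the 7 names (HMMR-AS1, EXOSC9, CCNA2 and KIF20A) had 10 counts or more, against 9.68% of all names, a difference that the choice of the names by level sets.

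HMMR-AS1 with HMMR and BRD8 with KIF20A had at least 90% of their counts under 1 name, as did 53.3% of the 1688 opposite-strand exon pairs with at least 30 counts over the 3 libraries. EXOSC9 with CCNA2 lay at 52.2% for the higher name, against a median of 91.3% over those pairs. In 329 of the 1688 pairs both names had at least 10 counts in every library, as EXOSC9 and CCNA2 did. The shared exon length of HMMR-AS1 and HMMR was short for such pairs, since 372 of the 1688 shared 113 bp or less and the median was 296 bp. These 3 pairs were chosen by their counts, so nothing is read from 2 of 3 reaching this share.

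**Figure D4:**
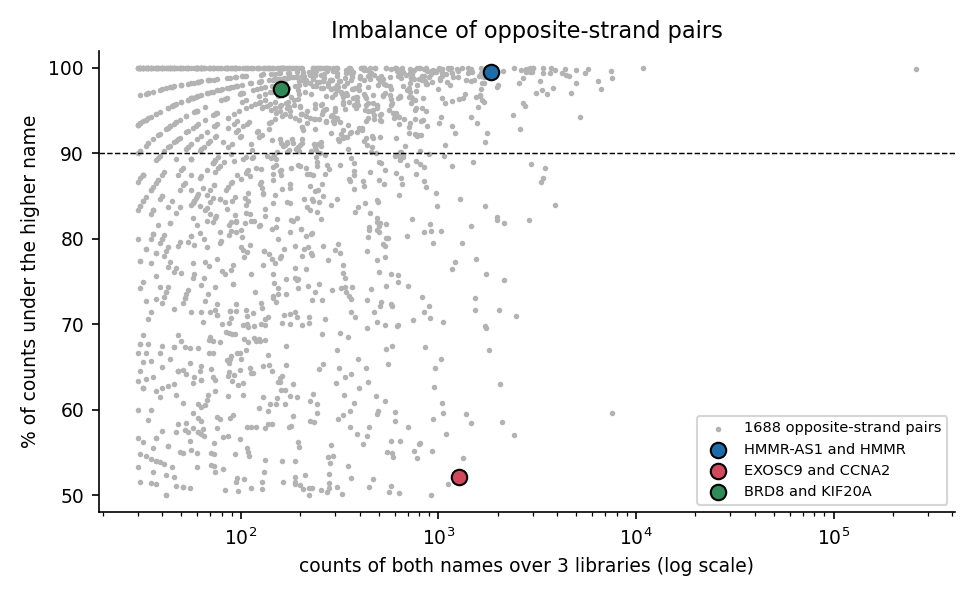
Percent of counts under the higher name against the summed counts of both names over 3 libraries (log axis) for 1688 opposite-strand exon pairs, with the pairs of the members in colour and a dashed line at 90%. HMMR-AS1 with HMMR (1838 counts) and BRD8 with KIF20A (160 counts) lie above the line and EXOSC9 with CCNA2 (1269 counts) lies near the lower edge.

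The spread between libraries was tested for every name with at least 10 counts in each library, with edgeR's Poisson fit and Benjamini-Hochberg adjustment over 2564 names. Of the members 4 could be tested, and 2 of them, HMMR-AS1 and CCNA2, varied by more than counting noise at an adjusted p under 0.05, as did 45.8% of all names tested. Of the names called, 49.3% were highest in replicate 2 and 38.6% lowest in replicate 1. HMMR-AS1 was highest in replicate 3, with 1420, 1494 and 1849 CPM in replicates 1, 2 and 3 (edgeR adjusted p = 9.14e-05). CCNA2 was lowest in replicate 1, with 400.0, 603.9 and 560.3 CPM (edgeR adjusted p = 0.00029). For EXOSC9, with 500.6, 594.7 and 609.8 CPM, the edgeR adjusted p was 0.14. For KIF20A it was 0.992. The coefficient of variation beyond counting noise was 0.139 for HMMR-AS1, 0.193 for CCNA2, 0.0785 for EXOSC9 and 0 for KIF20A, against a median of 0.200 over the names tested. HMMR, BRD8 and TOP2A had fewer than 10 counts in at least 1 library and were not tested. A share of 2 of 4 is near this background. The background rests on replicate 2: without it 263 of 2784 names were called, and HMMR-AS1 and CCNA2 were still called (edgeR adjusted p = 0.000389 and 0.0266). In bulk RNA fewer cells in the phase that uses a gene cannot be told apart from less of its RNA per cell.

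These calls rested on single libraries. Without replicate 1 the edgeR adjusted p of CCNA2 was 0.621, and over its 9 alternative settings it ranged from 9.12e-06 to 0.621. Without replicate 3 that of HMMR-AS1 was 0.0991, in a range of 1.76e-08 to 0.0991. For EXOSC9 it was 0.0256 with DESeq2 size factors and 0.0319 without replicate 3, in a range of 0.0256 to 0.871. TOP2A could be tested under 3 of the alternatives. Its edgeR adjusted p was 0.0555 with at least 5 counts in every library, 0.0804 with no count filter and 0.0466 without replicate 3.

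The names nearest to each tested member were found by the Euclidean distance of log2 CPM over the 3 libraries, among 2564 names. LOC100129931 was nearest to HMMR-AS1 (distance 0.169), followed by FSD2 (0.173) and ZRANB2-AS1 (0.204). LACTB2-AS1 (0.185), CLCC1 (0.187) and GSE1 (0.192) were nearest to EXOSC9, and FXR1 (0.131), FAM149B1 (0.163) and RABGAP1L (0.169) to CCNA2. LRRC59 (0.091), FAAP20 (0.129) and DNASE1 (0.137) were nearest to KIF20A. A distance over 3 libraries weighs mainly the level.

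A list of 70 genes of G2 and mitosis showed where the members stood among their kind. Of these, 63 had a count, 11 had at least 10 counts in every library and 7 had no count, among them AURKB, the kinase of the chromosomal passenger complex, and the spindle checkpoint kinases BUB1 and BUB1B, each with 0 counts against the floor of 3. Of the 17 list genes with an opposite-strand exon partner in the tables, 8 (47.1%) reached 10 counts in every library, against 27.6% of all 5165 names with such a partner. Of the 53 without a partner, TOP2A among them, 3 (5.66%) did, against 4.97% of 19461 such names. The 17 with a partner include members chosen by level, and CCNA2 and KIF20A are among the 8 that reached the minimum. That choice sets part of the difference from 27.6%. The median was 1.75 CPM per kilobase for the list genes with a partner and 1.34 for those without, against 2.05 and 0 over all names, and it was 9.38 for the 20 partners.

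CCNA2 and KIF20A were joined above this count minimum by NCAPG and SMC4, subunits of condensin, CDC25C, a phosphatase that activates the mitotic kinase, FOXM1, a transcription factor of G2 genes, PRC1, which bundles spindle microtubules, and PKMYT1, an inhibitory kinase. Per kilobase of exon CCNA2 was the highest of the list with 186 ± 38.4 CPM, followed by NCAPG with 77.0 ± 18.9 CPM and CDC25C with 35.4 ± 13.5 CPM, and then KIF20A with 33.6 ± 0.483 CPM (SD, n = 3 each). PKMYT1 had 22.2 ± 5.13 CPM, SMC4 18.9 ± 6.97 CPM, FOXM1 16.8 ± 2.46 CPM and PRC1 16.0 ± 3.56 CPM per kilobase (SD, n = 3 each). The 3 without a partner were UBE2S, a ubiquitin-conjugating enzyme of mitotic exit, with 62, 20 and 21 counts, CCNF, a cyclin that forms a ubiquitin ligase, with 26, 17 and 10, and CKAP2, a microtubule protein, with 10, 18 and 20. Of the 11 list genes tested for spread, 6 passed in the edgeR fit, a share near the 45.8% of all names tested: CCNA2, CDC25C, UBE2S, CKAP2, SMC4 and NCAPG. NCAPG and SMC4 were highest in replicate 2, as CCNA2 was, UBE2S and CDC25C in replicate 1, and CKAP2 in replicate 3.

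Counts also stood mostly under the partner at other mitotic genes across from antisense names. PRC1-AS1 received 1303, 1156 and 979 counts, against 43, 44 and 20 for PRC1. SPAG5-AS1 received 327, 303 and 283, against 3, 0 and 4 for SPAG5, a spindle and kinetochore protein gene. The partner also led at ANLN, a cytokinesis scaffold, where KIAA0895 received 294, 286 and 233 counts, against 7, 1 and 4. At NCAPG the partner LCORL received 893, 1283 and 686 counts, against 119, 192 and 128, with 1631 bp of exon in common. At SMC4 the partner TRIM59 received 125, 179 and 87 counts and the partner IFT80 8, 5 and 12, against 47, 97 and 45 for SMC4. At PKMYT1 the partner PAQR4 received 97, 50 and 59 counts and the partner KREMEN2 2, 0 and 3, against 38, 48 and 42 for PKMYT1. The reverse order, as at BRD8 and KIF20A, was seen at CDC25C, where FAM53C received 13, 4 and 3 counts, against 73, 34 and 33, and at FOXM1, where ITFG2 received 6, 4 and 3, against 30, 39 and 27. Of the 16 pairs of the list with at least 30 counts, the partner had more counts in 10 and was higher per kilobase in 9, and 8 had at least 90% of their counts under 1 name, a share near the 53.3% of all such pairs. Without the strand option, the strand of the RNA behind these counts is not known.

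**Figure D5:**
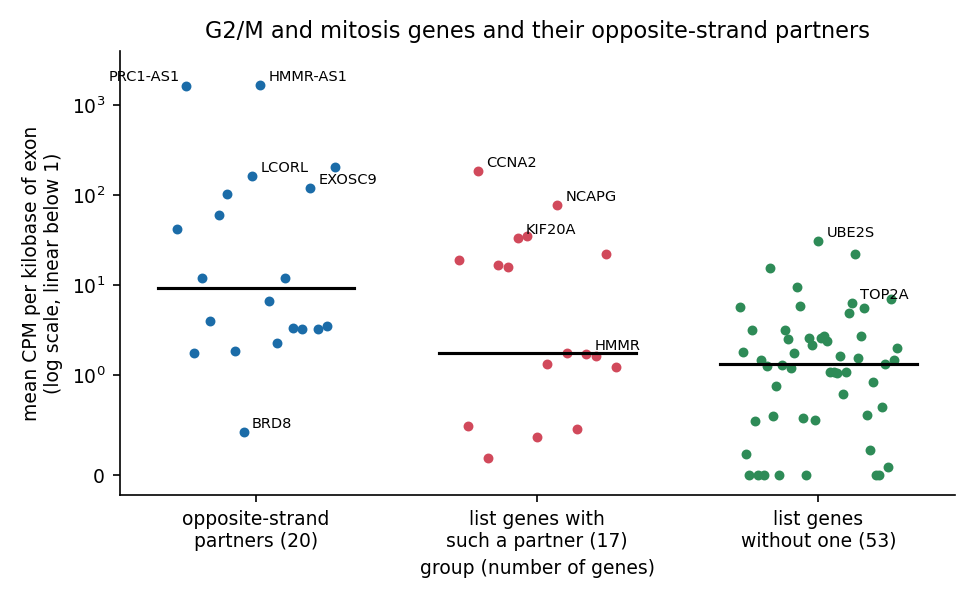
Mean CPM per kilobase of exon (log axis, linear below 1) for the opposite-strand partners of G2 and mitosis genes (20), the list genes with such a partner (17) and the list genes without one (53), each point a gene and each line a median. The medians are 9.38, 1.75 and 1.34, and HMMR lies near the median of its group while CCNA2 and KIF20A lie above it.

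EXOSC9 had the highest level per kilobase among the genes of the RNA exosome. Of 15 exosome genes listed, 14 had a count, with EXOSC1 at 0, and 5 reached 10 counts in every library. EXOSC9 had 121 ± 12.6 CPM per kilobase, the nuclease gene DIS3L, which has no partner, 61.8 ± 6.94 CPM and the nuclease gene DIS3 41.1 ± 2.86 CPM (SD, n = 3 each). The core subunit gene EXOSC8 had 16.1 ± 8.48 CPM and the helicase gene SKIV2L2 14.8 ± 2.37 CPM per kilobase (SD, n = 3 each). EXOSC8 was the gene of the 5 that passed the edgeR test for spread (edgeR adjusted p = 0.0106). Of the 6 exosome pairs with at least 30 counts, 1 had at least 90% of its counts under 1 name, against 53.3% of all such pairs. DCAF10 received 42, 55 and 35 counts, against 1, 10 and 4 for EXOSC3, SUPT20H received 95, 81 and 61, against 22, 14 and 28 for EXOSC8, and PPAP2A received 267, 250 and 215, against 39, 38 and 35 for SKIV2L2. Per kilobase SUPT20H and EXOSC8 differed by less than their spread, with a mean log2 ratio of SUPT20H over EXOSC8 of 0.30 ± 0.71 (SD, n = 3). At DIS3 the partner BORA, an activator of mitotic kinases, received 42, 86 and 51 counts, against 180, 205 and 137. Per kilobase their mean log2 ratio, BORA over DIS3, was 0.18 ± 0.44 (SD, n = 3).

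BRD8 was in the lower part of its complex. Of 17 genes of the NuA4/TIP60 complex 15 had a count, with EP400 and VPS72 at 0, and 4 reached 10 counts in every library. These were the catalytic subunit KAT5 with 144 ± 39.7 CPM per kilobase, ACTL6A with 19.0 ± 1.45, MORF4L1 with 10.7 ± 4.02 and MBTD1 with 4.70 ± 1.32 (SD, n = 3 each). KAT5 and MORF4L1 passed the edgeR test for spread (edgeR adjusted p = 1.32e-07 and 0.0349). BRD8 had 0.434 ± 0.376 CPM per kilobase (SD, n = 3), against a median of 0.88 over the complex. The median was 0.243 over all 24626 matched names, with or without a count, and 1.78 over the 13633 with a count. KAT5 shared 1439 bp of exon with RNASEH2C, which received 153, 192 and 123 counts, against 282, 160 and 182 for KAT5. Like BRD8, TRRAP, RUVBL1, RUVBL2, MRGBP and ING3 had at most 2 counts in any library, and EP400 and VPS72 had 0. SMURF1, opposite TRRAP, received 77, 52 and 36 counts, SEC61A1, opposite RUVBL1, 62, 77 and 24, and LHB, opposite RUVBL2, 33, 13 and 12. EEFSEC, the other partner of RUVBL1, received 0, 0 and 1 counts. OGFR-AS1, opposite MRGBP, received 6, 6 and 2 counts, and SCNM1, opposite VPS72, 0, 1 and 0. ING3 and EP400 had no such partner.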

How the data were processed

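The authors deposited raw whole-number counts per gene symbol, 1 table per replicate. Per the submitters' processing notes, Trimmomatic, TopHat2 (given as 2.2.5), HTSeq 0.11.2 and the hg38 build were used. Neither annotation, strand setting nor read layout is stated there. Summary lines were excluded: no feature held 91.2% and alignments that were not unique 6.77% of records (means of 3 libraries). CPM used TMM effective library sizes from edgeR 4.0.16 in R 4.3.3. Spread between libraries was tested against a Poisson fit, deviance against chi-square, on names with at least 10 counts in every library, since 1 condition allows no quasi-likelihood contrast. In counts simulated with Poisson noise from the real means, the test called 42.9% of 63 names raised 1.5-fold in replicate 2. It called 83.1% of 65 raised 2-fold, 100% of 64 raised 4-fold and 0.646% of 2788 unchanged names. Poisson noise is what the test assumes, so these rates do not describe the real libraries, which differed by more. Log2 ratios used a prior of 0.5 counts. GENCODE release 29 (GRCh38) matched 23899 of 26485 names directly and 730 through another symbol, as a stand-in for the annotation used to count. The exons of each gene were merged over its transcripts, and any shared base on opposite strands made a pair. Sequences came from RefSeq (GRCh38.p14), where all 7 members matched, and from GENCODE transcripts. Pairs and intervals were computed with pandas 2.3.3 and scipy 1.17.1 in Python 3.11.15, and plots drawn with matplotlib 3.10.9. The genes named were the members, list genes and partners with at least 10 counts in every library (for a list with over 10 pairs, the 10 highest), up to 3 list genes per list with no count and the 3 nearest names. CDC23, EEFSEC, FAM53C, ING3, ITFG2, KREMEN2, MRGBP, OGFR-AS1, SCNM1 and XIST were added after their values were seen. The members and lists were chosen with earlier results of these data known. Alternatives were DESeq2 1.42.0 size factors, total counts, other count filters, a Pearson statistic, other priors, lengths and pair thresholds and leaving out each replicate; leaving out TSIX was added after seeing the data.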

Additional observations from a re-analysis of the deposited data

How the results depend on the processing

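No paired analysis was possible because the series has 1 group. Of 118 values recomputed under alternatives, 104 were classed as unchanged, a class that still allowed shifts in size. It held the 786 names called for spread without replicate 1, against 1175 with all libraries. It also held a TOP2A level of 30.8 CPM without replicate 2, against 41.0. With no count filter 2914 names varied beyond counting noise, against 1175 as reported, and leaving out 1 replicate gave 263 to 1093, the lowest without replicate 2. The number of members called was 1 to 3 without 1 replicate. The level of KIF20A was 128.9 to 141.3 CPM without 1 replicate, beyond its small SD. A prior of 2 counts gave log2 ratios of 9.10 for HMMR-AS1 over HMMR and -4.90 for BRD8 over KIF20A, against 9.69 and -5.98 with 0.5 counts, and a prior of 0.1 counts gave 9.90 and -6.91, since HMMR and BRD8 have few counts. Without length correction the first was 7.65 and that of EXOSC9 over CCNA2 was 0.14, reversed from -0.61 per kilobase, which the exon lengths set. For EXOSC9 the edgeR adjusted p was 0.0256 with DESeq2 size factors. Depth limits HMMR and BRD8, which lie near or below 3 counts, so differences between libraries were not detectable for them. Leaving out TSIX changed no call of a member.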
